A study of Mus musculus with 9 samples.

Results

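The data described here are the expression profiles of spermatogonia preparations from mice on a normal diet, the control samples of a study of vitamin A deficiency in mouse testis. They were chosen by their sample titles, and they make up 3 of the 9 samples of the series, and the other 6, whose mice received a diet lacking vitamin A, are not used here. The control mice were adult Balb/C mice fed the normal diet, with no transgene, deletion or drug named in the labels, and the age of these mice is not given in the sources used here. Per the labels, testes of 2 mice were taken for each preparation, interstitial cells were removed with the supernatant after the first digestion, the dissociated tubules were left on a culture dish overnight, and the germ cells that stayed in suspension were then separated by sedimentation through albumin. The stated purity was above 90%, judged by microscopy. RNA was amplified in 2 cycles from 100 ng and hybridised to an Affymetrix array. Whether the 3 arrays hold 3 separate preparations is not stated, so the spread between them may be technical in part, and the number of arrays limits every value below.

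Spermatogonia are the mitotic germ cells at the base of the seminiferous tubule. Undifferentiated spermatogonia include the stem cells, and under retinoic acid they turn into differentiating spermatogonia, which express the receptor Kit and go on to meiosis. Spermatocytes pair and recombine their chromosomes with the help of the synaptonemal complex, and in the pachytene stage they start to transcribe many genes of later germ cells. Round spermatids then build the acrosome and the tail, and elongating spermatids replace their histones with transition proteins and protamines. Sertoli cells nurse the germ cells inside the tubule, while Leydig cells, peritubular myoid cells, macrophages and vessels lie in its wall or outside it.

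Each gene's level is given as its signal percentile, which is the rank of its probe set among the 34945 probe sets with 1 gene symbol on the same array, with 100 for the brightest. Probe sets bind their targets with different strength, so a percentile places a signal within an array and does not measure the abundance of one transcript against another. A rank is not altered when all signals of an array are scaled by a common factor, but other differences in brightness can alter it. The 18193 genes had a median percentile of 56.3, above the middle because 1 probe set was taken for each gene. In whole preparations, fewer cells of a type and less RNA per cell cannot be told apart.

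The 3 arrays did not agree equally well. Control replicates 1 and 2 ranked the probe sets with a Spearman correlation of 0.910 across 34945 probe sets, while replicate 3 correlated with them at 0.754 and 0.759. Among the ranked probe sets, 0 had an identical signal in any pair of arrays. The median signal of replicate 3 was near that of the others, 7.33 against 8.10 and 8.61, but its 95th percentile of signal was 149 against 473 and 484. The 100 brightest probe sets held 22.1% of all signal on replicate 3, compared with 14.0% and 14.1%. The bacterial hybridisation control bioB, added to every sample before hybridisation, gave 289 on replicate 3 and 593 and 629 on the other arrays. Other control probe sets differed to another degree. On replicates 1, 2 and 3, cre gave 14191, 13825 and 10930, and dap gave 42.8, 48.6 and 11.1. The 3′ to 5′ signal ratio of the beta-actin control probe sets, a measure of RNA integrity and amplification length, was 4.92, 5.49 and 3.32 on replicates 1, 2 and 3, and that of Gapdh was 3.16, 3.36 and 4.36. Results below are therefore given for each array.

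**Figure D1:**
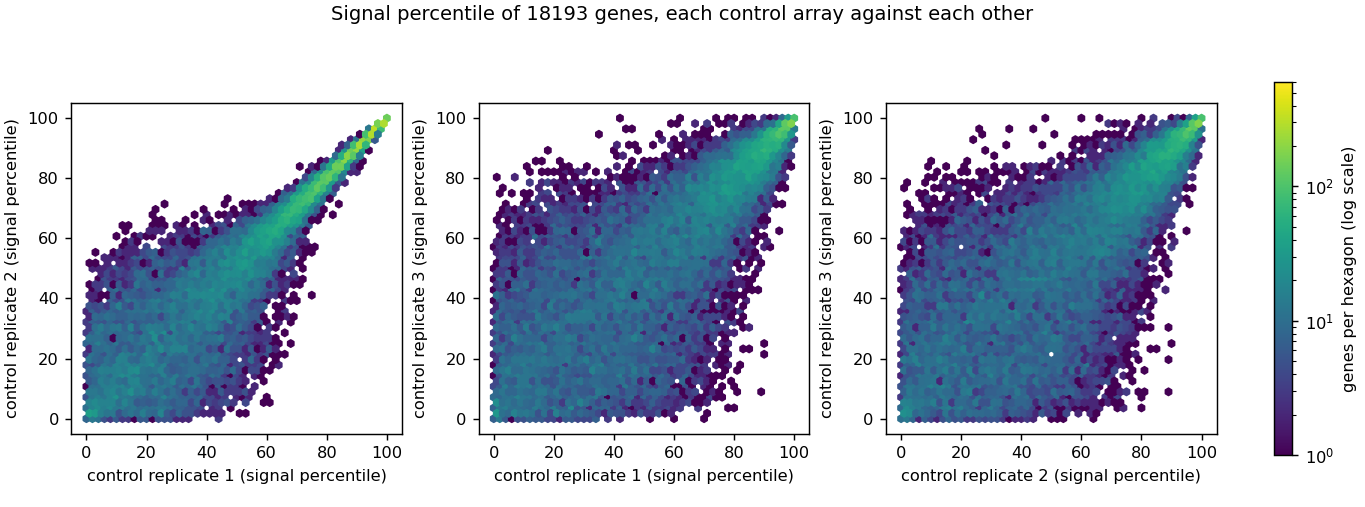
Signal percentile of 18193 genes on each control array against each other control array, with colour for the number of genes per hexagon on a log scale. Replicates 1 and 2 lie close to the diagonal at high percentiles, and both comparisons with replicate 3 spread more widely.

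The difference between arrays was also taken by level, in classes formed on the mean of the same 3 percentiles. A percentile cannot exceed 100, so the difference in the highest class is small by construction and is given as a description. Among the 10% of genes with the highest mean percentile, the median absolute difference was 0.283 percentile points between replicates 1 and 2, and 1.71 and 1.64 between each of them and replicate 3. In the third 10% from the bottom it reached 12.6 points between replicates 1 and 2, and 20.2 and 19.8 points against replicate 3. The pairs with replicate 3 thus differed more than replicates 1 and 2 in both classes. Of the 1000 highest genes of each array, 942 were common to replicates 1 and 2 and 674 to all 3 arrays. Of the 100 highest, 90 were common to replicates 1 and 2 and 54 to all 3.

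**Figure D2:**
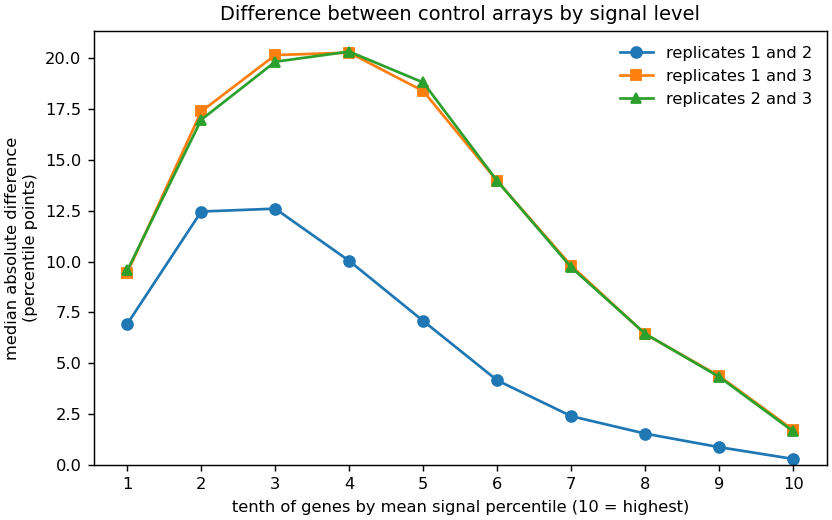
Median absolute difference in signal percentile between pairs of control arrays, for genes split into 10 equal classes by mean percentile, which bounds the difference in the highest class. The difference falls to 0.283 points for replicates 1 and 2 in the highest class, and stays at 1.71 and 1.64 points for the pairs with replicate 3.

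The genes that ranked highest on every array had varied known roles. Ordered by the lowest of their 3 percentiles, Pebp1, a phospholipid-binding protein that inhibits Raf kinase, came at the top, with signals of 11302, 10975 and 17535 on replicates 1, 2 and 3. Ldhc, the lactate dehydrogenase of male germ cells, was next with 14310, 14542 and 11522. On the probe sets used, their signals on replicate 3 were of the same order as on the others, although that array was dim. For Ldhc this depended on the probe set, since another one had 13901, 14665 and 4035. Tcp1, a subunit of the chaperonin ring that folds actin and tubulin, had 10035, 10184 and 5919.5. Ybx3, a protein that binds DNA and stored messenger RNA in germ cells, had 10072, 10563 and 5893, and Eef1a1, the elongation factor of translation, had 7272, 7851 and 5230. These 5 genes were at or above the 99.9th percentile on all 3 arrays.

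Among the other members of the 25 highest genes, Ppp1cc, a protein phosphatase catalytic subunit with a testis isoform, had signals of 9321, 9645 and 4002. Phf7, a chromatin reader of spermatids, had 5633, 5519 and 2293, and Tcfl5, a helix-loop-helix factor of spermatocytes, had 5469, 6906 and 2624. Further germ cell transcripts were Gk2, a glycerol kinase of testis, at 6748, 7382 and 1741, the testis lactate dehydrogenase Ldhal6b at 4644, 4907 and 2391, and the axonemal dynein heavy chain Dnah8 at 5550, 6074 and 1622. Metabolic and housekeeping members were Sucla2 of the citric acid cycle, Fbp1 of gluconeogenesis, the mitochondrial channel Vdac2, cytoplasmic actin Actg1, the ribosomal proteins Rps7 and Rps29, the chaperonin subunit Cct7 and the chaperones Hsp90aa1 and Hspa5. Arl3, Cetn4, Cfap97, Usp1 and the uncharacterised 1700123L14Rik completed the group. For some of these genes the high rank depended on the probe set used. The median percentile over the probe sets of a gene was 38.4 for Sucla2, 83.3 for Dnah8, 86.1 for Cetn4 and 87.7 for Ppp1cc. With that median taken for every gene, 13 of the 25 genes stayed among the 25 highest. Replicate 3 gave the lowest signal of the 3 arrays for 24 of these 25 genes, Pebp1 being the exception. The 99th percentile of ranked signal was 712 on that array against 1916.5 and 2014 on replicates 1 and 2. The count thus describes a dim array and not these genes, and it was not taken over all genes.

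Genes that mark undifferentiated spermatogonia had a list median below that of all genes. Of 26 listed genes, 23 were measured, with a median percentile of 43.1 against 56.3 for all genes. A gene was counted as high when it lay at or above the 75th percentile on all 3 arrays, which 24.3% of all genes did, and as low when it lay below the 50th on all 3, which 30.0% did. In this list 1 gene was high and 10 were low, and 4 lay at or above the 50th percentile on all 3 arrays, as 44.1% of all genes did. The high one was Id4, a transcriptional inhibitor that marks stem cells, at signals of 237, 285 and 86.6 and percentiles of 89.8, 91.1 and 90.5. The arrays agreed closely on it, with a mean percentile of 90.5 ± 0.632 (SD, n = 3). This is the rank of the brightest of its 3 probe sets, and the median over them was 76.6.

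The next genes of this list were well below Id4. Taf4b, a germ cell subunit of the general transcription machinery, lay at the 69.7, 74.0 and 58.5th percentile. Gfra1, the co-receptor for the niche factor GDNF, lay at 67.4, 66.7 and 69.3, with signals of 28.6, 27.2 and 18.9. Bcl6b, a repressor induced by GDNF, lay at 61.9, 62.1 and 65.6. Zbtb16, the zinc finger protein that maintains the stem cells, had signals of 5.34, 7.56 and 6.22, at percentiles of 35.5, 41.9 and 41.9, below the 50th on every array. Sall4 (10.6, 54.8 and 11.9) and Upp1 (8.58, 6.90 and 38.4) were the lowest, and for both a single array stood away from the other pair.

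Differentiating spermatogonia were represented by 16 of 17 listed genes, with a median percentile of 58.0, 1 high and 3 low. Dmrtb1, a transcription factor of differentiating spermatogonia, stood apart with signals of 1630, 1570 and 196 and percentiles of 98.7, 98.6 and 95.6. It was the single member of this list at or above the 90th percentile on all 3 arrays, where 9.03% of all genes lay. Taf7l (78.1, 80.4 and 69.1), Nxf2 (78.1, 77.3 and 57.1) and Rhox13 (69.5, 72.4 and 55.9), all X-linked genes of early germ cells, followed with lower values on replicate 3. Without that replicate a gene had to be high on the other 2 arrays only, and 3 genes of the list were. Of all 18193 genes 5310 were high in this way, against 4420 on all 3 arrays. Counts without replicate 3, here and below, thus tend to rise by construction. Kit had signals of 0.622, 9.01 and 9.95, at percentiles of 8.32, 45.9 and 53.9. Stra8, the retinoic acid target that marks the entry into meiosis, had 14.7, 4.12 and 21.2, at 57.1, 29.0 and 71.7. The spread of these last 2 genes, with SDs of 24.3 and 21.7 points, covers most of the range below the bright genes. Crabp1, a retinoic acid carrier (27.6, 31.7 and 43.5), and Usp26 (8.72, 39.9 and 2.51) closed the list.

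Genes on the list for all germ cells were among the brightest, though the list also holds genes of later stages such as Ddx25. Of 13 measured genes 11 were high and 0 low, with a median percentile of 93.5. Mael, a factor of transposon silencing, had signals of 6239, 6863 and 550, and Ddx4, the RNA helicase that marks the germ line, had 2611, 3011 and 932. Ddx25, a helicase of translation in meiotic and later cells, had 2952, 2801 and 204. Rnf17, a Tudor domain protein of germ cells, lay at percentiles of 95.8, 96.6 and 94.3. Dazl, an RNA-binding protein of germ cells, lay at percentiles of 90.8, 91.6 and 87.0. The lowest members were Tdrd1 (69.9, 69.9 and 81.4) and Dnd1 (62.1, 61.4 and 32.4), a partner of the stem cell factor Nanos2, which was itself not measured.

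Genes of early meiotic prophase were also high as a group. Of 24 measured genes 14 were high and 1 was low, with a median of 85.1, and 16 were high without replicate 3. The proteins of the synaptonemal complex led, with Syce1 at signals of 2259, 2213 and 347, and Sycp3 at 1341, 1484 and 199. Stag3, a cohesin subunit of meiotic chromosomes, had 1216, 1214 and 657, so that its rank on replicate 3 (98.9) was no lower than on the others (98.0 and 97.9). Syce2 lay at 96.7, 96.6 and 92.5. At the other end, Prdm9, the methyltransferase that places recombination sites and acts at the onset of prophase, lay at 50.01, 38.1 and 34.4, and Mei4, needed to form DNA breaks, at 1.78, 20.7 and 31.6.

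Pachytene spermatocyte genes had the highest median of the stage lists, 94.2, with 19 of 24 high and 0 low. After Ldhc came Crisp2, a secreted protein of the acrosome and tail, with signals of 5820, 5427 and 1335. Adam3, a surface protein needed for sperm migration, had 3516, 3757 and 1157, and Pgk2, the phosphoglycerate kinase of late germ cells, had 2917, 3002 and 629. Piwil1, the Piwi protein of pachytene cells, lay at 93.9, 93.8 and 92.6. The lowest members were Tbpl1, a TBP relative (60.4, 57.3 and 26.2), and the testis linker histone H1f6 (55.7, 52.6 and 46.7). For Tbpl1 this depends on the probe set, since its brightest one, which may detect several of its transcripts, had signals of 3558, 3884 and 2011 and a median percentile of 99.7. Tesmin likewise moved from 62.6 to 94.6, while H1f6 has 1 probe set.

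Spermatid genes were as prominent as those of pachytene cells. The lowest of the 24 measured round spermatid genes had a median over the arrays of 81.4, 23 were high on every array and 0 were low, with a list median of 93.1. Catsper2, a subunit of the sperm calcium channel, had signals of 2936, 3118 and 973. Actl7b, an actin relative of the spermatid head, had 1693, 1632 and 860, Dpy19l2, an anchor of the acrosome to the nucleus, had 1175, 1456 and 611, and Klhl10, a ubiquitin ligase adaptor of spermatids, had 1156, 1025 and 323. Acr, the acrosomal protease acrosin, lay at percentiles of 95.6, 95.3 and 94.1. The lowest 2 were Spata16 (82.6, 79.1 and 86.4) and Crem, the transcriptional activator of spermatid genes (80.5, 81.4 and 84.0), and both had a brighter probe set at medians of 96.99 and 94.6.

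Of 24 elongating spermatid genes, 20 were high and 0 low, with a median of 93.1, and 22 were high without replicate 3. Prm1, protamine 1, had signals of 6126, 4663 and 399 and percentiles of 99.9, 99.8 and 98.0. Meig1, which acts in the assembly of the sperm tail, had 3336, 3310 and 691. Smcp, a mitochondrial capsule protein of the tail, had 2843, 2461 and 485, and Tcp11, a sperm motility protein, had 2364, 2214 and 345. Tnp1, transition protein 1, lay at 95.7, 94.0 and 95.8. Cylc2, a protein of the sperm head skeleton, was lower at 67.6, 72.5 and 62.3. Oaz3, the spermatid antizyme, lay at 64.4, 33.1 and 74.5 on the probe set used, but its brightest of 6 probe sets had signals of 1993, 1734 and 387.

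Set in order, the list medians ran from pachytene spermatocytes (94.2) through all germ cells (93.5), round spermatids (93.1) and elongating spermatids (93.1) to meiotic prophase onset (85.1), differentiating spermatogonia (58.0) and undifferentiated spermatogonia (43.1). The medians of a list on the single arrays had an SD of 0.926 to 1.46 points for the 5 highest of these lists, 3.13 for differentiating and 6.53 for undifferentiated spermatogonia. The first 4 lists differ from each other by about the spread between arrays or less. Their medians were above those of both lists of spermatogonia on every array. The SD over arrays describes how the arrays repeat and not the spread of list members, so it gives no test between lists. Quartiles of members were 85.5 and 99.1 for pachytene spermatocytes, 44.0 and 69.2 for differentiating and 23.2 and 51.8 for undifferentiated spermatogonia. On each single array the 4 lists had medians of 91.4 or more, including replicate 3. Those of undifferentiated spermatogonia were 33.0, 41.9 and 45.8. The prepared cells were labelled spermatogonia. The lists whose genes ranked highest in them were those of spermatocytes, spermatids and all germ cells. Id4 and Dmrtb1 were the members of the spermatogonial lists that were high on every array. The share of each cell type in the preparations was not measured. Of the 100 genes with the highest rank on all arrays, 5 were pachytene genes (Adam2, Adam3, Crisp2, Hspa2 and Ldhc), 1 was a gene of all germ cells (Ddx4) and 1 was a round spermatid gene (Catsper2), while 0 came from the lists of undifferentiated or differentiating spermatogonia, meiotic prophase onset or elongating spermatids. These 100 genes are 0.55% of all genes, so a count of 0 in a list of this size says little.

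**Figure D3:**
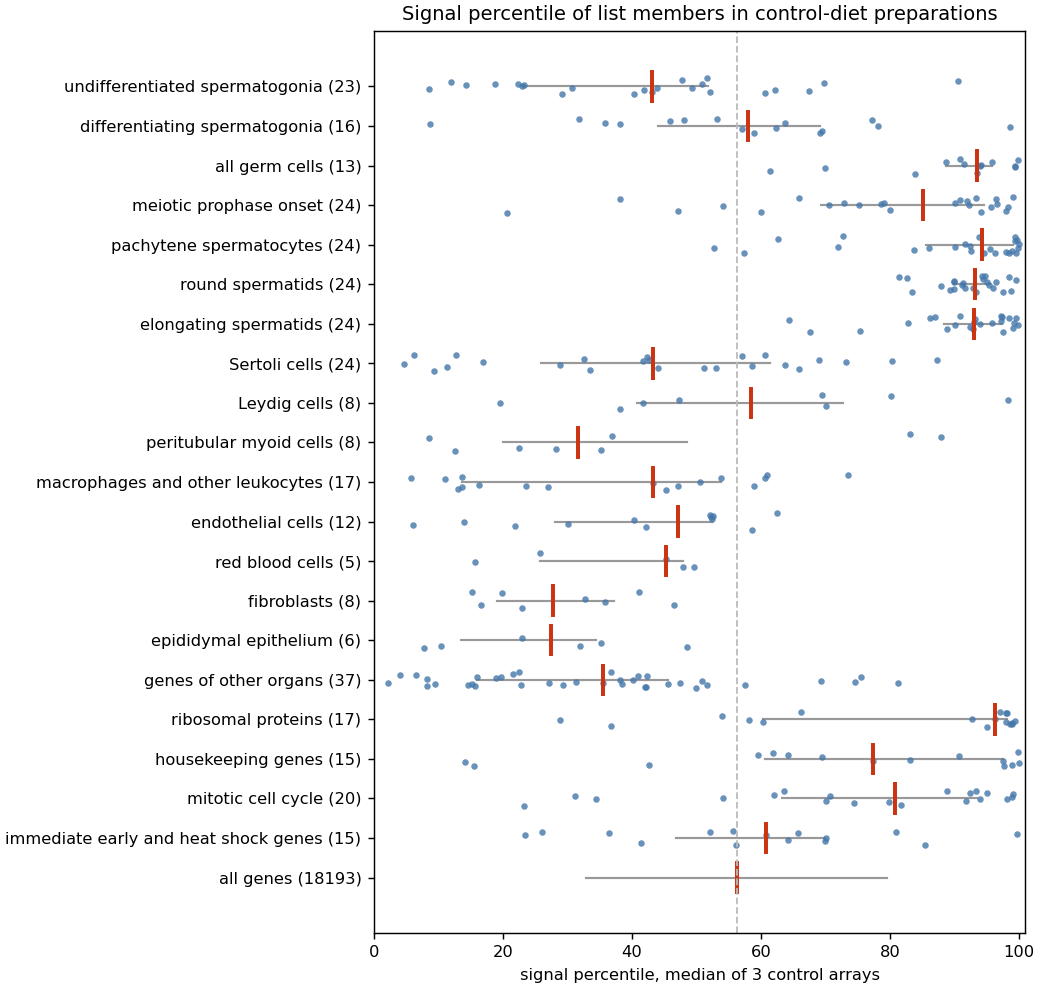
Signal percentile of every measured member of each gene list, as the median of the 3 control arrays. Red bars are list medians, grey lines join the quartiles, the dashed line marks the median of all genes (56.3), and members measured are in brackets. The germ cell lists from meiotic prophase onward have medians of 85.1 to 94.2, and both lists of spermatogonia spread over the range.

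A list of genes that belong to other organs served as a yardstick for signals of genes chosen as not typical of testis. Its 37 measured members, among them liver, pancreas, lens, muscle and lung genes, had a median of 35.5, with 0 high and 17 low. The highest were the pituitary hormone precursor Pomc (81.4, 81.2 and 60.1), the skin proteins Lor (75.5, 67.3 and 92.0) and Krt10 (74.6, 76.5 and 73.5), and the clotting factor Fgg (65.7, 70.1 and 69.3). The lowest were the keratin Krt1 (3.80, 3.96 and 25.5) and the surfactant protein Sftpa1 (2.15, 12.97 and 2.04). In their median over the arrays, 22.9% of all genes lay above the highest of these genes. Of the undifferentiated spermatogonia genes 1 of 23 did, as did 1 of 16 for differentiating spermatogonia. The counts were 11 of 13 for all germ cells, 12 of 24 for meiotic prophase onset, 19 of 24 for pachytene spermatocytes, 24 of 24 for round spermatids and 21 of 24 for elongating spermatids. They were 10 of 20 for the mitotic cell cycle and 1 of 24 for Sertoli cells. Some genes of the yardstick are also expressed in testis, Pomc among them, so it is not a measure of background alone.

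A sequence motif was present in a larger share of the spermatid promoters than of all promoters, although most spermatid promoters lacked it. The share in each list follows from the choice of its genes and from the genome sequence. It does not draw on the array signals and says nothing about the preparations. Sequences of the 250 bases before the start of transcription were taken from RefSeq (GRCm38.p6), where 14452 of the 18193 genes had 18109 promoters. The motif TGACNTCA was searched on both strands. It includes the palindrome TGACGTCA, the cAMP response element bound by the CREB and CREM family, and its variants with another base at 1 of the inner positions. It was present in 10 of 23 promoters of round spermatid genes (43.5%) and 11 of 30 of elongating spermatid genes (36.7%), against 6.79% of all promoters. For pachytene genes it was 2 of 19, for meiotic prophase onset 2 of 24, and for undifferentiated spermatogonia 0 of 22. Among the small somatic lists it was 2 of 5 for myoid cells and 2 of 12 for leukocytes. The exact palindrome was present in 2 and 1 promoters of the spermatid lists and in 2.12% of all. In the spermatid lists 19 genes held 27 such matches, counting those in each promoter of a gene, and 24 of the 27 began within 100 bases of the start. A match is a stretch of letters and not a measured binding site. No p is given, since the lists were not drawn for this comparison, and genes with 2 promoters enter for each.

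Promoters of 3 elongating spermatid genes are shown, as the 150 bases before the start with the motif in capitals, as examples of where the match lies. The match in Prm1 covers bases -64 to -57, and in Tnp1 it covers -94 to -87, with Gapdhs, the sperm form of a glycolytic enzyme, holding a pair. The coordinates are chr16:10796824-10796973 on the minus strand for Prm1, chr1:73015900-73016049 on the minus strand for Tnp1 and chr7:30743682-30743831 on the minus strand for Gapdhs, and all are upstream flanking sequence.
Prm1: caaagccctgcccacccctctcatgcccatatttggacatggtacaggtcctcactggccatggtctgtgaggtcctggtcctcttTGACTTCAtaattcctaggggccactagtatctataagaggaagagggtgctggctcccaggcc
Tnp1: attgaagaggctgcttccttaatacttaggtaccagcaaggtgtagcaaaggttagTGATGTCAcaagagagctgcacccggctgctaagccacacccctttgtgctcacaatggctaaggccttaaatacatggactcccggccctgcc
Gapdhs: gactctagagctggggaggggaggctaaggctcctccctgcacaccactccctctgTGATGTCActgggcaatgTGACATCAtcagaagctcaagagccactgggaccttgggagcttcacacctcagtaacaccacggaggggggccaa

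The spermatid promoters were also poor in CpG, the dinucleotide at which mouse DNA is methylated. The median number of CpG in 250 bases was 5 for round and 2.5 for elongating spermatid genes, against 12 for all promoters, 15 for pachytene, 18 for all germ cells and 15.5 for undifferentiated spermatogonia. Genes of other organs had 3. High rank as such went with more CpG, as the promoters of the 10% highest genes had a median of 17 and those of the lowest 30% had 7. The spermatid genes thus ranked high with promoters of a CpG content like that of low-ranked genes. For comparison, 150 bases before the start are shown for Smcp, a bright gene with no CpG there, and for Kit, Ddx4, Dmrtb1 and Id4, with CpG in capitals. They hold 14, 26, 15 and 28 CpG in that order.
Smcp: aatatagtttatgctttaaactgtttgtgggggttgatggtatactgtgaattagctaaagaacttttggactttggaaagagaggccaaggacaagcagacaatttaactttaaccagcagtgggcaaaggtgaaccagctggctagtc
Kit: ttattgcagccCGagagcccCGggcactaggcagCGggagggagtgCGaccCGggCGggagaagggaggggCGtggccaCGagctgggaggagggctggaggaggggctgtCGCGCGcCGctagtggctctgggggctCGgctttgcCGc
Ddx4: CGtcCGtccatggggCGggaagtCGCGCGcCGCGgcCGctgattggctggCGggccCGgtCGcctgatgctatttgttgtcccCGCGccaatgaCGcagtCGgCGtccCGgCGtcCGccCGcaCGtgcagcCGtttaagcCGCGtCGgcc
Dmrtb1: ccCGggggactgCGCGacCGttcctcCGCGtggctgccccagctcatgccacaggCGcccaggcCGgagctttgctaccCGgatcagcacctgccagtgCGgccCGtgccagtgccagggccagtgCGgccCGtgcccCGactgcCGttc
Id4: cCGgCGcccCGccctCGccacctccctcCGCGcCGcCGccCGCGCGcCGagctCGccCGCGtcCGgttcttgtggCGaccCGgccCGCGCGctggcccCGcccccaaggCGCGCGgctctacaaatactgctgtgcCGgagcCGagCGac

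The Smcp stretch is at chr3:92589074-92589223 (minus strand), Kit at chr5:75574837-75574986 (plus), Ddx4 at chr13:112652311-112652460 (minus), Dmrtb1 at chr4:107683590-107683739 (minus) and Id4 at chr13:48260966-48261115 (plus), all upstream of the gene in GRCm38.p6. Kit and Id4 both have many CpG, and yet Kit was at percentiles of 8.32, 45.9 and 53.9 and Id4 at 89.8, 91.1 and 90.5. Prm1 and Smcp had 0 CpG in the 250 bases before the start, and their lowest percentiles over the 3 arrays were 98.0 and 98.4.

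**Figure D4:**
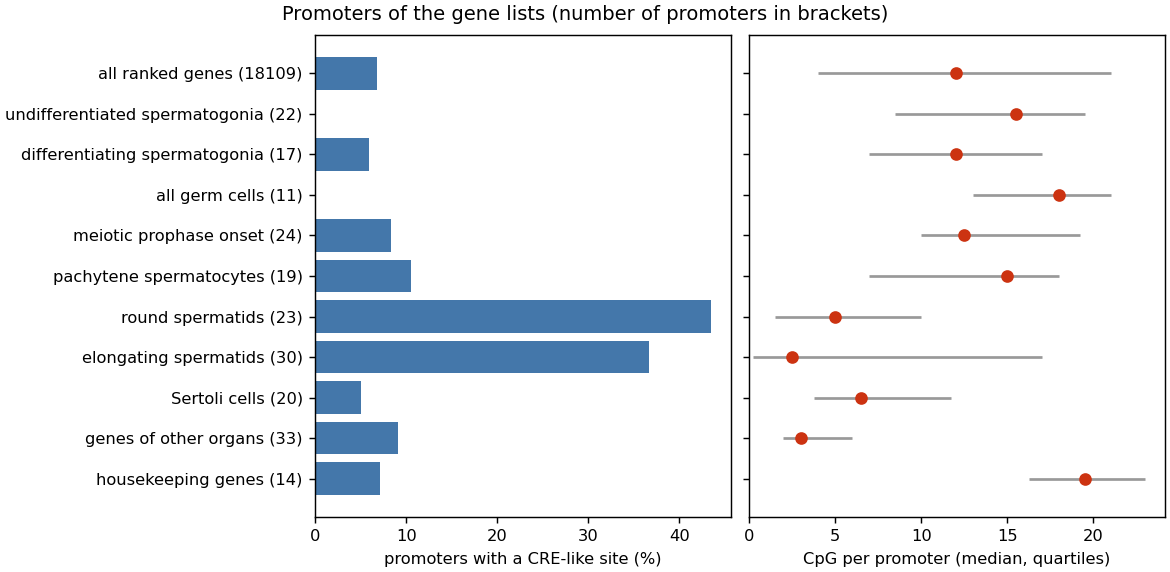
Left, share of promoters with the motif TGACNTCA in the 250 bases before the start, by gene list; right, number of CpG per promoter as the median with quartiles. Promoters per list are in brackets, round and elongating spermatid genes have shares of 43.5% and 36.7% against 6.79% of all, and their median CpG counts are 5 and 2.5.

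Many enzymes have a germ cell form beside the form that most tissues use, and 16 of 21 listed pairs were measured for both. In 13 pairs the germ cell form had the higher percentile on all 3 arrays, in 1 the other form did, and in 2 the arrays differed. Pgk2 lay at 99.5, 99.5 and 98.8 against 77.6, 69.5 and 61.9 for Pgk1. Pdha2, a subunit of pyruvate dehydrogenase, lay at 98.87, 98.97 and 98.99 against 56.0, 57.5 and 66.1 for Pdha1. Both Pgk1 and Pdha1 are X-linked, and Pgk2 and Pdha2 are their autosomal counterparts.

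On the probe sets used, the widest separation was between the mitochondrial ADP carriers, with Slc25a31 at 96.6, 97.3 and 96.6 and Slc25a4 at 5.80, 9.44 and 12.2. The brightest probe set of Slc25a4 had a median of 51.75. Cyct, the testis cytochrome c, lay at 95.9, 96.3 and 94.9 against 64.2, 71.4 and 69.5 for Cycs. Ccna1, the meiotic cyclin A, lay at 96.5, 95.4 and 93.6 against 62.0, 60.3 and 69.0 for Ccna2, which drives mitosis. Hspa2, the chaperone of pachytene cells, lay at 99.3, 99.4 and 99.7 against 42.6, 44.5 and 35.4 for Hspa8. Several gaps narrow with the brightest probe set, which had a median of 92.9 for Hspa8, 87.6 for Cycs, 96.7 for Canx and 98.6 for Tbp.

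Ldhc and Ldha were both near the top, at 100.0, 99.997 and 99.99 and at 99.8, 99.8 and 99.3. The endoplasmic reticulum chaperones went both ways, since Clgn (94.6, 95.02 and 93.0) ranked above Canx (80.2, 81.7 and 79.5) and Calr3 (82.7, 81.8 and 64.8) below Calr (97.7, 97.4 and 96.8). For the actin-capping subunits Capza3 and Capza2, and for the Y-box proteins Ybx2 and Ybx1, the order changed between arrays. With the brightest probe set of each gene the germ cell form was higher in 12 pairs, because Pabpc1, the general poly-A binding protein, then had a median of 99.99 and lay above Pabpc2. In this comparison as elsewhere, the probe sets of a pair differ, and the percentiles are set side by side without a test.

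**Figure D5:**
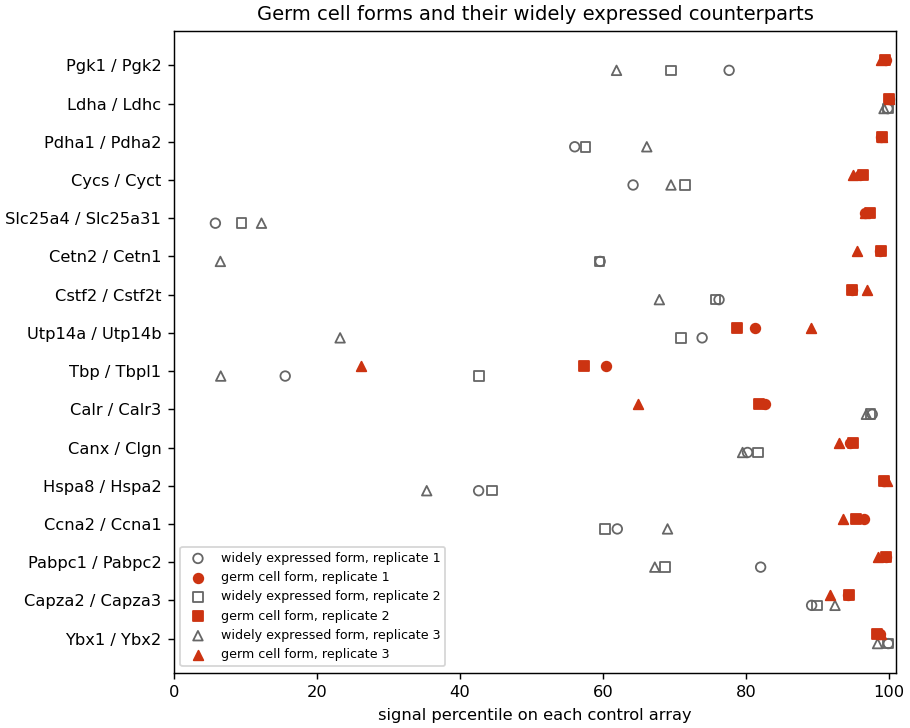
Signal percentile of 16 pairs of germ cell form (filled red) and widely expressed form (open grey) on each control array, with symbols for the 3 replicates. The germ cell form lies to the right on all 3 arrays in 13 pairs, and Calr3 lies to the left of Calr on all 3.

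Markers of Sertoli cells ranked low to middle. Of 24 measured genes 2 were high and 11 low, with a median of 43.3 and list medians of 51.4, 41.8 and 42.7 on the 3 arrays. The high ones were Tjp1, a tight junction protein present in many epithelia (87.2, 89.1 and 86.4), and Clu, a secreted chaperone and one of the most abundant Sertoli transcripts (80.3, 77.1 and 84.2). Kitl, the ligand of Kit, lay at 73.5, 73.2 and 33.9, and Inha, the inhibin alpha subunit, at 71.2, 69.0 and 68.3. The transcription factors that define the cell type were low, with Sox9 at 25.9, 41.9 and 33.5 and Wt1 at 44.0, 30.7 and 45.7. Gdnf (6.15, 5.73 and 44.7), the niche factor, and Cldn11 (4.67, 22.6 and 4.65), a protein of the blood-testis barrier, were the lowest. With the brightest probe set of each gene the list median was 55.0 against 60.1 for all genes, where Amhr2 lay at 69.2 and the protease Ctsl at 73.6.

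Leydig cell markers were represented by 8 of 11 listed genes, with 2 high, 3 low and a median of 58.4. The high share of 25.0% was near the 24.3% of all genes. The hormone Insl3, one of the most specific Leydig transcripts, was not measured. Fdx1, an electron carrier for steroid synthesis that other mitochondria also use, lay at 98.4, 98.8 and 94.3, and Scarb1, a lipoprotein receptor, at 80.2, 80.2 and 83.5. The steroidogenic genes were lower and uneven, Star at 70.1, 72.5 and 47.8 and Cyp17a1 at 74.8, 69.4 and 46.7, with the lower value on replicate 3 in both. Hsd3b1 (38.1, 44.9 and 34.1) and Hsd17b3 (18.1, 48.3 and 19.5) were below the 50th percentile on all 3 arrays.

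Peritubular myoid markers had a median of 31.7, with 2 of 8 high and 5 low. Here too the high share, 25.0%, was near the 24.3% of all genes. Actg2 (89.0, 87.9 and 82.2) and Mylk (83.1, 81.9 and 94.3) were high, while the contractile proteins Myh11 (37.0, 38.9 and 7.88) and Smtn (30.5, 9.65 and 12.6) were low. Acta2, smooth muscle actin, lay at 7.37, 20.9 and 8.56, but another of its 3 probe sets, of a type that can match related transcripts, had signals of 79.3, 62.1 and 73.1 and a median percentile of 79.7. The position of Acta2 is thus not settled by these arrays.

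The other somatic lists held no high genes, where 24.3% of all genes were high and 30.0% low. For the lists of 5 to 8 genes a count of 0 says little. The 17 markers of macrophages and other leukocytes had a median of 43.2 and 8 low members. Adgre1, the macrophage surface protein F4/80, lay at 72.0, 73.5 and 86.2, and the complement gene C1qa at 5.77, 5.08 and 8.89. Laptm5, a lysosomal protein of blood cells, had signals of 18.4, 10.1 and 819, so that replicate 3 alone was high. The 12 endothelial genes had a median of 47.1 and 6 low members, with Vwf at 64.3, 62.5 and 51.8 and Pecam1 at 11.97, 16.7 and 14.0. The 8 fibroblast genes had a median of 27.8 and 5 low members, with Dcn at 67.8, 46.5 and 18.8. The 5 measured red blood cell genes had a median of 45.3, led by Hba-a2 (49.5, 39.6 and 64.4). The 6 genes of epididymal epithelium, the duct that lies against the testis, had a median of 27.4 with 5 low.

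Genes of the mitotic cell cycle ranked higher than those of spermatogonia. Of 20 measured genes 9 were high and 2 low, with a median of 80.8, and 11 were high without replicate 3. The mitotic kinase Aurka had signals of 2021, 2041 and 386, Ccnb2, a cyclin of division, had 1821, 1875 and 154, and Pcna, the replication clamp, had 1291, 1221 and 685.98. Bub1, a checkpoint kinase, had 554, 550 and 243. These genes serve meiotic divisions as well as mitosis. Tyms, the enzyme that makes thymidylate (24.5, 23.3 and 14.6), and the replication licensing factor Mcm3 (31.2, 52.9 and 9.36) were at the bottom of the list.

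Ribosomal proteins had a median of 96.3 with 10 of 17 high, and housekeeping genes a median of 77.3 with 7 of 15 high. Both lists show how the choice of probe set sets a rank. Rps14 (99.5, 99.3 and 93.2) and Rplp0 (99.2, 98.9 and 93.0) were near the top, whereas Rps18 lay at 14.5, 28.8 and 46.2 on the probe set used and at a median of 98.998 on its brightest. The translation-associated Tpt1 moved in the same way from a median of 14.1 to 98.9, and the TATA-binding protein Tbp from 15.6 to 98.6. Over the 9010 genes with more than 1 probe set, the median gap between the highest and lowest of them was 28.3 percentile points. The median SD over the arrays was 7.55 points for all genes, which is an unlike measure over a larger set of genes.

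Of the 20 lists, that of the immediate early and heat shock response had the largest SD of its median over the arrays, 14.8 points, while the median SD of single members was larger for fibroblast genes (17.3 points against 15.2). The median of the former was 64.2 on replicate 1, 60.8 on replicate 2 and 37.1 on replicate 3, and 3 of 15 genes were high. Dnajb1, a co-chaperone with high expression in spermatids, had signals of 3246, 3586 and 1044. Hsph1 (85.5, 84.5 and 88.4) and Egr1 (82.4, 77.4 and 81.0) were alike on all arrays. Fos, an early response gene to stimulation and handling, lay at 74.4, 70.0 and 37.1, and Junb (34.4, 22.3 and 23.4) and Fosb (26.0, 4.68 and 38.2) were low. The handling of the preparations was not recorded array by array in the sources used here, and its part in these values was not tested.

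Single genes that the arrays placed differently were found mainly through replicate 3. Of the 10288 genes at or above the 50th percentile on at least 2 arrays, 462 fell below it on replicate 3 with a range over 40 points, against 86 on replicate 1 and 73 on replicate 2. Abcf2, an ATP-binding cassette protein, had signals of 225, 245 and 0.874, the widest gap among these genes. Crtap, a collagen-modifying protein (66.9, 49.2 and 0.447), Lcn2, an iron-binding lipocalin (52.3, 77.6 and 0.733), Ccdc172 (81.5, 94.9 and 0.797), Letm1, a mitochondrial ion exchanger (79.8, 75.3 and 0.909), and Josd2 (36.2, 22.4 and 0.181) had the same form, as did 1700116B05Rik (75.6, 79.9 and 0.376) and 4933433N18Rik (28.3, 51.5 and 0.441). Pcyox1 was lowest on replicate 2 (0.738, with 12.4 and 33.7 on the others), and Taf1c on replicate 1 (0.878, with 22.2 and 38.5).

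The reverse form, near the bottom on replicates 1 and 2 and high on replicate 3, was also seen. The estrogen-forming enzyme Hsd17b1 had signals of 3.00, 0.203 and 30.9, the cell cycle factor E2f1 had 2.35, 0.781 and 44.9, and the fetal serum protein Afp had 0.496, 0.924 and 37.8. Dusp16, a phosphatase, had 0.0939, 4.06 and 37.6 on the probe set used. Lypd2 (0.492, 1.501 and 35.4), Usp19 (1.40, 0.869 and 54.7) and Gm34006 (1.21, 0.156 and 29.6) followed. Dusp16 and Usp19 each had another probe set with medians of 88.8 and 88.6. The brightest of 5 probe sets of Afp lay at 31.1, 31.3 and 25.7, and the brightest of 3 of E2f1 at 57.9, 40.8 and 76.8. The differences given for these genes are therefore those of single probe sets.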

How the data were processed

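Each deposited value is a linear MAS5 signal intensity of 1 probe set. The algorithm is named in the submitters' processing notes, and no source used here states its version or scaling target. Control replicates 1, 2 and 3 were used. Of 45101 probe sets, 64 control probe sets were left out, 932 with several gene symbols and 9160 with none were not named, and 34945 were ranked on each array. Symbols were updated through a RefSeq gene table, which held 34741 of them. A gene was represented by its probe set with the highest median percentile over the arrays, with those whose suffix marks shared or multiple transcripts used last. Of 382 listed genes 340 were measured. With 1 group there was no contrast, so no test was run. The ranking and the choice of 1 probe set for each gene were tested on simulated data with planted high and low genes, and the other steps were not. Python 3.11.15 with pandas 2.3.3, numpy 2.4.6 and scipy 1.17.1 was used.

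The rule for named genes took the 25 highest by their lowest percentile, the 4 highest and 2 lowest members of each list, the most discordant genes, the pairs and 17 fixed genes. Not all of these are printed for the smaller somatic, ribosomal and housekeeping lists or the pairs, and a few other list members were added for their role or for their probe sets after their values were seen. The lists and the subject were chosen with earlier results of these data known. Alternatives were other ways to represent a gene, other ranks and thresholds, and leaving out each array.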

Additional observations from a re-analysis of the deposited data

How the results depend on the processing

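Over the alternatives, the correlations between arrays were 0.910 to 0.972 for replicates 1 and 2, 0.735 to 0.842 for 1 and 3 and 0.741 to 0.846 for 2 and 3, and the pairs with the germ cell form higher numbered 12 to 15. The lists from all germ cells to elongating spermatids had higher medians than both lists of spermatogonia under every setting tried. With the median over the probe sets of a gene, list medians became 29.1 for undifferentiated spermatogonia, 91.4 for all germ cells and 91.5 for round spermatids, and 1 Sertoli gene was high. The median of all genes was then 49.2. With the brightest probe set the list medians became 98.2 for pachytene, 94.5 for round spermatids, 97.01 for elongating spermatids and 55.0 for Sertoli cells, with 60.1 for all genes. Both settings kept 13 of the 25 highest genes. Ranks among all non-control probe sets gave 62.8 for differentiating spermatogonia, 87.3 for meiotic onset and 94.1 for round spermatids, with 61.5 for all genes. Ranks among genes lowered the medians to 36.2, 51.4, 92.1, 81.6, 92.9, 91.6, 91.5 and 36.4 in the order of the germ cell lists and Sertoli cells, with 1 Sertoli gene high, while the median of all genes fell to 49.6. At the 90th percentile the counts were 0 for undifferentiated spermatogonia, 7 for all germ cells, 9 for meiotic onset, 13 for round spermatids and 0 for Sertoli cells. At the 50th they were 4 for undifferentiated and 7 for differentiating spermatogonia and 6 for Sertoli cells. Leaving out each array in turn gave medians of 51.3 to 61.6 and counts of 1 to 3 for differentiating spermatogonia, and medians of 91.4 to 93.1 for all germ cells, 93.0 to 94.4 for pachytene and 92.1 to 93.1 for round spermatids (counts 11 to 11, 19 to 19 and 23 to 24). Without replicate 3, 11 ribosomal genes and 1 gene of other organs were also high, as were 5310 of all genes against 4420 on all 3 arrays. Leaving out an array kept 14 to 25 of the highest genes, 14 without replicate 3. The planned comparison of protein sequences was not run. No paired analysis was possible because the results come from no test and from 1 group. Detection calls were not used here, so a low signal cannot be told from background.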

Other observations

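The probe sets without a single gene symbol were also ranked, among all non-control probe sets. Of 10092 such probe sets, 728 (7.21%) lay at or above the 75th percentile on all 3 control arrays, against 22.9% of those with 1 symbol. At the 99th percentile the shares were closer, with 53 (0.525%) against 210 (0.601%). The brightest 2 of them, 1 with 3 symbols in the platform table and 1 with none, lay at 99.99 or above on every array. The highest ranks of these preparations are therefore not covered by the named genes alone.

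The motif TAACNG, which holds the core recognised by Myb proteins such as the pachytene factor Mybl1, was searched in the same promoters. It was present in 11 of 24 promoters of meiotic prophase onset genes (45.8%) and 6 of 19 of pachytene genes (31.6%), against 17.5% of all promoters and 13.3% of those of elongating spermatid genes. The share was also above that of all promoters in lists of few promoters, with 2 of 5 for epididymal epithelium, and shares of 33.3% for leukocytes, 29.4% for differentiating and 27.3% for undifferentiated spermatogonia. Among the 100 genes with the highest rank on all arrays the share was 28.3%. Mybl1 itself lay at percentiles of 83.3, 86.1 and 87.7 on the 3 arrays. These shares describe letters in a window and were not tested.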
